A study of Mus musculus with 12 samples.

Results

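The adult hemoglobin genes Hba-a1, Hba-a2, Hbb-bs and Hbb-bt and the erythroid heme synthesis gene Alas2 were followed through brain RNA-seq libraries of mice with experimental cerebral malaria (ECM). These 5 genes were chosen by symbol among the 21983 rows of the gene count table, and all 5 were present. The 3 groups of wild-type C57BL/6 mice aged 6 weeks had 4 libraries each, numbered 1 to 4: treated ECM (mice with ECM given artesunate for 4 days), ECM, and control (normal mice). The labels give no parasite strain, no time since infection and no artesunate dose. They do not say whether each library is 1 animal or whether blood was flushed from the vessels before the brain was removed. P-values therefore measure the spread between libraries, which may be technical.

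Hemoglobin carries oxygen in red cells and is built from alpha and beta chains that each hold a heme group. In mice of this strain the adult alpha chain is encoded by Hba-a1 and Hba-a2 and the adult beta chain by Hbb-bs and Hbb-bt. Alas2 encodes the erythroid form of aminolevulinate synthase, which makes the first and rate-limiting step of heme synthesis in red cell precursors, while Alas1 serves other tissues. Immature circulating red cells (reticulocytes) still hold globin and Alas2 RNA, which is lost as they mature, and low globin expression is also known in some neurons and glia. Malaria parasites multiply inside red cells, and artesunate kills them at that stage. In whole-brain libraries, fewer cells of a type and less RNA per cell cannot be told apart.

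The copies within each chain are close to identical, and the sequences below show how little separates them. Hba-a1 lies on chromosome 11 from 32283511 to 32284465 and Hba-a2 from 32296489 to 32297298, both on the plus strand. Hbb-bs lies on chromosome 7 from 103826534 to 103828096 and Hbb-bt from 103812524 to 103813996, both on the minus strand. Alas2 lies on the X chromosome from 150547375 to 150570638, on the plus strand, with 11 exons against 3 in each globin gene. These positions are from GENCODE M21 (GRCm38, the same build as mm10). The 429 coding bases of Hba-a1 and Hba-a2 differ at 1 base, C381T, and the 444 coding bases of Hbb-bs and Hbb-bt at 1 base, C417T, counted from the A of the start codon, with the Hba-a1 or Hbb-bs base first. The 60 coding bases around each difference, from GENCODE M21 transcripts, are given with the differing base in capitals.
Hba-a1: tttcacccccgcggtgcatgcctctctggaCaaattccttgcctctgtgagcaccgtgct
Hba-a2: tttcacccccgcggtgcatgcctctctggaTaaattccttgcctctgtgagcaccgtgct
Hbb-bs: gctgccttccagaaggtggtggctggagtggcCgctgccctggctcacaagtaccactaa
Hbb-bt: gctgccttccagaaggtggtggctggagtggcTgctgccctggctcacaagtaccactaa
Of all 100-base stretches of the Hba-a1 transcript, 56.5% also occur in Hba-a2, and 74.5% of those of Hba-a2 occur in Hba-a1. The shares for Hbb-bs and Hbb-bt are 62.6% and 54.8%, and no 100-base stretch is shared between Hba-a1 and Hbb-bs. A read from a shared stretch cannot be given to 1 copy with certainty, so each chain was also measured as the summed reads of its 2 copies (the alpha pair and the beta pair).

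Promoters of genes from the alpha, beta and heme branches are shown because all 5 members were lowest in the ECM libraries. The 150 bases before the RefSeq transcript start (GRCm38.p6) are given 5′ to 3′ on the gene's strand, with matches to 4 motifs on either strand in capitals: GATAA (bound by GATA factors), CACCC (bound by Klf factors), CCAAT (the CCAAT box) and TATAA (the TATA box).
Hba-a2, chr11:32296342-32296491, plus strand: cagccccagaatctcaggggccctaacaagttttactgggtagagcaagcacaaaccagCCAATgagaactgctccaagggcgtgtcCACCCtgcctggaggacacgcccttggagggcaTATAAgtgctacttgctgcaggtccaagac
Hbb-bs, chr7:103827929-103828078, minus strand: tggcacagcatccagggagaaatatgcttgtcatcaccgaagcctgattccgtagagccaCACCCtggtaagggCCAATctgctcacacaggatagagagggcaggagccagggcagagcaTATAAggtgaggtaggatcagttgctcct
Alas2, chrX:150547267-150547416, plus strand: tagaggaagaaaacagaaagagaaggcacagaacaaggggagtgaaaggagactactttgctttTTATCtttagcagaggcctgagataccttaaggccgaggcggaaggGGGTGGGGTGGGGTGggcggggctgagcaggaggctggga
The sequence around the RefSeq start of Hba-a1 is identical to that of Hba-a2 over 297 bases after a shift of 3 bases. That stretch is longer than the 150 bases shown and runs past the start. Each of Hba-a1, Hba-a2 and Hbb-bs has 1 match to CACCC, 1 to CCAAT and 1 to TATAA. Hbb-bt has 3 matches to CACCC, 3 to CCAAT and 1 to TATAA, with 2 CCAAT matches, on opposite strands, lying next to each other. Alas2 has 1 match to GATAA and 3 to CACCC. Among 32851 RefSeq promoters of the same length, 13.3% hold GATAA, 37.4% CACCC, 24.5% CCAAT and 14.2% TATAA. These matches describe letters and not bound sites. GENCODE M21 starts each of these 5 genes further upstream than RefSeq does. The stretches shown therefore lie partly, and for Hbb-bs wholly, inside the GENCODE gene.

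Library size was 14250893 to 18381410 counted reads in treated ECM, 13342177 to 18886822 in ECM and 13422447 to 18337509 in control. Mitochondrial genes took 4.74% to 5.27% of the reads in treated ECM, 5.54% to 15.2% in ECM and 5.69% to 10.7% in control, with the highest shares in ECM 2, ECM 3 and control 4. Summed markers of neurons and glia ran from 12461 to 15663 CPM (read counts scaled to library size and by TMM) in treated ECM, 12732 to 15498 in ECM and 12660 to 16425 in control, so the labelled tissue was present at overlapping levels. Of the members, 4 passed the low-count filter among 14599 genes tested by edgeR's quasi-likelihood test over all 12 libraries. Hba-a2 did not pass. A gene was called at a Benjamini-Hochberg adjusted p below 0.05 over all genes tested.

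ECM against control asked how the members differ in brains with cerebral malaria. Hemoglobin transcripts were almost missing from ECM brains: the 4 hemoglobin rows together drew 6, 3, 0 and 5 reads in ECM libraries 1 to 4, against 560, 706, 371 and 154 in the control libraries. Every ECM library lay far below every control library. Over the groups these are 14 reads in ECM and 1791 in control, which makes the ECM level 118-fold lower (95% interval 70.4 to 217). Such intervals are exact binomial and cover counting error only. Of the 4 members tested, Hba-a1, Hbb-bs and Hbb-bt fell in ECM, where 10.3% of all genes tested were called, 3.27% lower and 7% higher. All 5 members were lower in every ECM library than in any control library. Of all genes tested 14.3% did not overlap between these groups, 5.79% being lower in ECM and 8.54% higher. A member that passes the filter only through its high group is bound to differ, so these counts and the members' p-values are read as descriptions. Hbb-bt and Alas2 did not pass the low-count filter when only ECM and control libraries were kept.

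Hba-a1, the alpha copy with more counted reads, had 2, 1, 0 and 3 reads in ECM 1 to 4. It had 152, 176, 97 and 50 reads in control 1 to 4. Its level was 0.0953 ± 0.0726 CPM in ECM and 7.41 ± 3.14 CPM in control (mean ± SD, n = 4 libraries each). The groups did not overlap, and Hba-a1 fell by 6.08 on the log2 scale (SE 0.83, edgeR adjusted p = 0.000247). Hba-a2 had 1, 0, 0 and 0 reads in ECM and 6, 5, 8 and 4 reads in control. Its groups did not overlap either, but the control counts were small. The pooled ratio gave an ECM level 21.3-fold lower (95% interval 3.46 to 877). Without the low-count filter, Hba-a2 had a log2 fold change of -3.90 (SE 0.85, edgeR adjusted p = 0.00904 over 18272 genes). The alpha pair fell by 5.94 on the log2 scale (SE 0.80, edgeR adjusted p = 0.000214).

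Hbb-bs, the beta copy with more counted reads, had 3, 2, 0 and 2 reads in ECM 1 to 4. It had 366, 486, 254 and 97 reads in control 1 to 4. It averaged 0.121 ± 0.0950 CPM in ECM and 18.8 ± 9.73 CPM in control (SD, n = 4 each). The lowest control library, control 4, still had 6.63 CPM, against 0.226 CPM in the highest ECM library. Hbb-bs fell by 7.20 on the log2 scale (SE 0.81, edgeR adjusted p = 4.77e-05). Hbb-bt, the beta copy with fewer counted reads, had 0 reads in all 4 ECM libraries. It had 36, 39, 12 and 3 reads in control 1 to 4. Set against 3 counts over the ECM group, a level of 0.0514 CPM, it was at least 27.8-fold lower in ECM (edgeR adjusted p = 0.0121). Hbb-bt passed the low-count filter only through groups where it is high, so this p is a description. The beta pair fell by 7.30 on the log2 scale (SE 0.82, edgeR adjusted p = 4.96e-05).

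Alas2, the erythroid heme synthesis enzyme, had 4, 0, 0 and 6 reads in ECM 1 to 4 and 11, 24, 9 and 9 reads in control 1 to 4. ECM 2 and ECM 3 had none, and all ECM libraries were below the controls at 0.152 ± 0.175 CPM in ECM and 0.840 ± 0.442 CPM in control (SD, n = 4 each). The log2 fold change was -2.29 (SE 0.78, 95% interval -3.98 to -0.61), which did not pass edgeR's test after adjustment (adjusted p = 0.0859, unadjusted p = 0.0113). DESeq2 gave -2.37 with an adjusted p of 0.0313, and the authors' deposited table lists Alas2 at -2.39 with an adjusted p of 0.0742. Over the 17 alternatives that kept Alas2 after their filter, adjusted p ran from 0.0313 to 0.187 and the log2 fold change from -2.94 to -1.56. The others, among them those without treated ECM 1 or without control 2 (its highest libraries), left Alas2 out. The value nearest 0 came without ECM 2, ECM 3 and control 4, the 3 libraries with the highest mitochondrial share. Without those libraries the alpha pair stood at -5.58 and the beta pair at -7.26 on the log2 scale, and 3 members were still called lower.

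**Figure D1:**
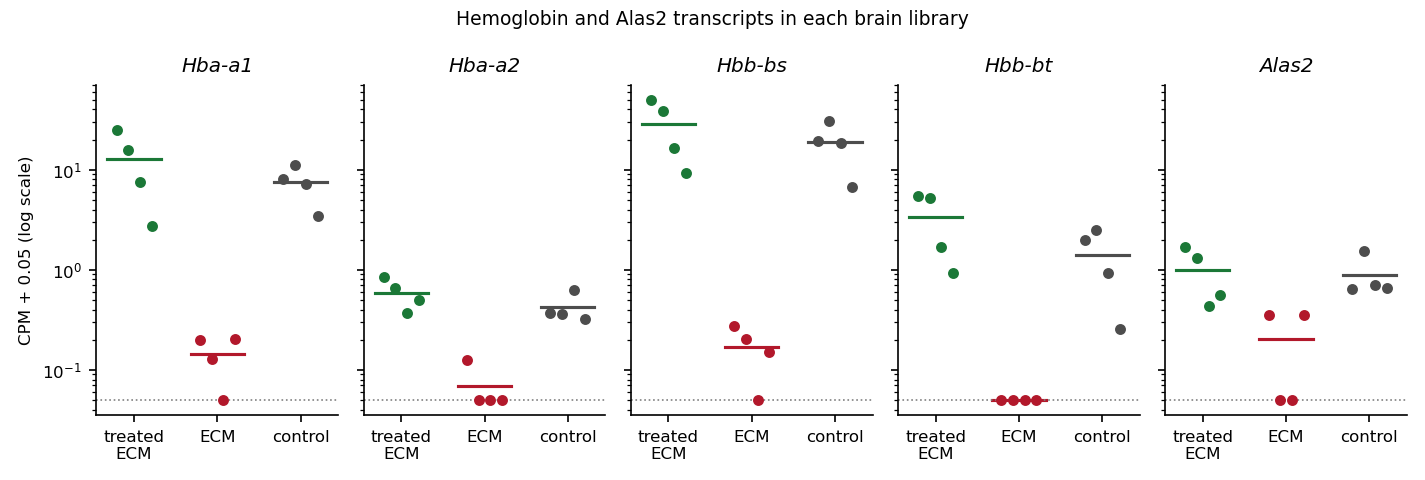
Level of each member in every library, as CPM + 0.05 on a log scale, with treated ECM, ECM and control from left to right. Points are libraries 1 to 4, bars are group means and the dotted line marks 0 reads. For Hbb-bt all 4 ECM points lie on that line, and for every member the ECM points lie below those of the other groups.

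Treated ECM against ECM asked whether the members differ after artesunate. Hemoglobin transcripts were present in all treated brains, with 1544, 901, 408 and 207 reads over the 4 rows in treated ECM 1 to 4, against 6, 3, 0 and 5 reads in ECM 1 to 4. The lowest treated library, treated ECM 4, had 13.1 CPM and the highest ECM library 0.451 CPM. Pooled over libraries, the treated level was 195-fold higher (95% interval 116 to 357). Hba-a1, Hbb-bs and Hbb-bt rose, where 8.35% of all genes tested were called, 3.3% higher and 5.05% lower. All 5 members were higher in every treated than in any ECM library. Of all genes tested 22% did not overlap, 11.5% being higher in treated ECM and 10.5% lower. This comparison shares its ECM libraries with the one above. Here too the members passed the filter only through groups where they are high, so these counts and the members' p-values are descriptions.

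Hba-a1 had 476, 233, 119 and 42 reads in treated ECM 1 to 4, against 2, 1, 0 and 3 in ECM. It averaged 12.7 ± 9.85 CPM in treated ECM and 0.0953 ± 0.0726 CPM in ECM (SD, n = 4 each) and rose by 6.86 on the log2 scale (SE 0.83, edgeR adjusted p = 0.000645). Treated library 1 was the highest and library 4 the lowest. Hba-a2 had 15, 9, 5 and 7 reads in treated ECM and 1, 0, 0 and 0 in ECM. That is a pooled ratio of 32.1 (95% interval 5.41 to 1303). The alpha pair rose by 6.71 on the log2 scale (SE 0.80, edgeR adjusted p = 0.000646).

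Hbb-bs had 950, 582, 258 and 144 reads in treated ECM 1 to 4, against 3, 2, 0 and 2 in ECM. Its mean was 28.7 ± 19.2 CPM in treated ECM and 0.121 ± 0.0950 CPM in ECM (SD, n = 4 each), a rise of 7.81 on the log2 scale (SE 0.81, edgeR adjusted p = 0.000227). Hbb-bt had 103, 77, 26 and 14 reads in treated ECM and 0 in every ECM library, which makes it at least 65.4-fold higher (edgeR adjusted p = 0.00651, a description only). Both copies ran from high to low in the same order of libraries. The beta pair rose by 7.96 on the log2 scale (SE 0.82, edgeR adjusted p = 0.000223).

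Alas2 had 31, 19, 6 and 8 reads in treated ECM 1 to 4 and 4, 0, 0 and 6 in ECM 1 to 4. After scaling, the lowest treated library had 0.380 CPM and the highest ECM library 0.307 CPM, so the groups were separate by a narrow margin. The log2 fold change was 2.48 (SE 0.77, 95% interval 0.81 to 4.14) and missed the threshold (edgeR adjusted p = 0.0638). Without ECM 4 the value was 3.12 (edgeR adjusted p = 0.0483), and DESeq2 gave 2.54 (adjusted p = 0.0184), so the call depends on the tool and on that library. Without ECM 2, ECM 3 and control 4 the value was 1.62 (edgeR adjusted p = 0.160). Over the 17 alternatives that tested Alas2, the log2 fold change ran from 1.62 to 3.12 and adjusted p from 0.0184 to 0.160. The authors' deposited table gives 2.56 with an adjusted p of 0.0337.

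**Figure D2:**
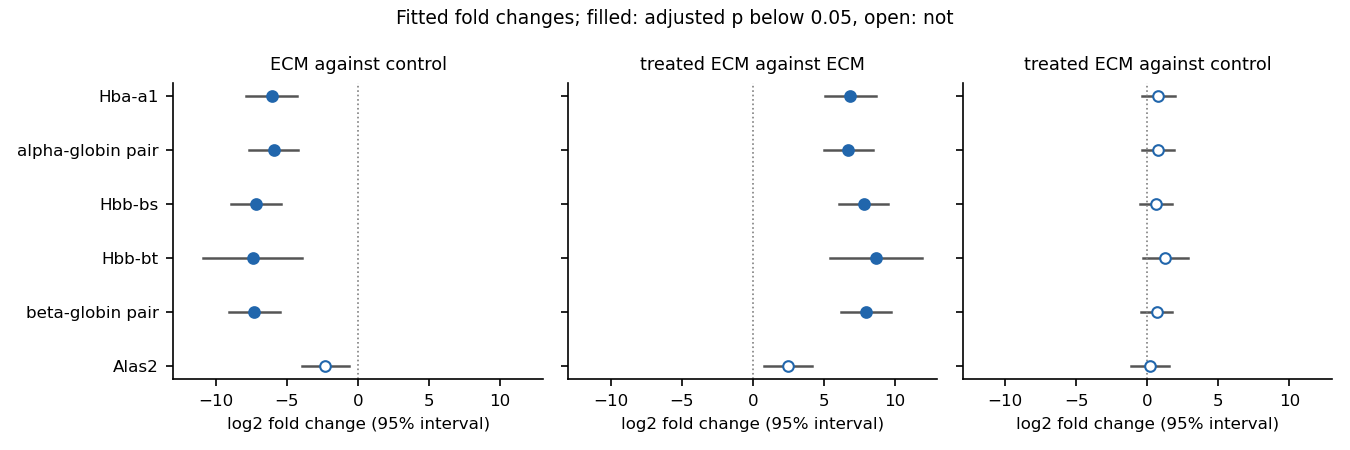
Log2 fold changes with 95% intervals for the members tested and for the summed pairs in the 3 comparisons, with filled points called by edgeR at adjusted p below 0.05. The alpha and beta genes lie near -6 and -7 in ECM against control and near 7 and 8 in treated ECM against ECM, Alas2 is open in all 3 panels, and no point is filled in treated ECM against control. Intervals were derived from the test's F statistic and are symmetric by construction. The fitted value of Hbb-bt depends on the prior count, since ECM has 0 reads.

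Treated ECM against control asked whether the treated brains differ from normal ones. None of the 4 members tested was called by edgeR, where 2.04% of all genes were (1.99% higher and 0.0548% lower). DESeq2 called none of the members either. None had an unadjusted edgeR p below 0.05, against 1671 of all 14599 genes tested. The 4 rows together averaged 45.2 ± 31.4 CPM in treated ECM and 27.9 ± 13.8 CPM in control (SD, n = 4 each). Ranges overlapped, from 13.1 to 81.6 CPM in treated ECM and from 10.5 to 44.2 CPM in control. The alpha pair differed by 0.77 on the log2 scale (95% interval -0.37 to 1.91, edgeR adjusted p = 0.543) and the beta pair by 0.67 (95% interval -0.44 to 1.77, edgeR adjusted p = 0.582). These intervals reach from a level slightly below control to more than 3-fold above it. For Alas2 the difference was 0.18 (95% interval -1.18 to 1.54, edgeR adjusted p = 0.904). Hbb-bt had the largest difference of the members, 1.25 (95% interval -0.33 to 2.83, edgeR adjusted p = 0.494), with 0.887 to 5.45 CPM in treated ECM and 0.205 to 2.44 CPM in control. All 5 members overlapped between these groups, while 19.1% of the genes tested did not (10.8% higher and 8.29% lower in treated ECM).

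For each member the order of mean levels was treated ECM, control and then ECM, and treated ECM and control did not differ beyond the spread of their libraries. Per length, in the authors' deposited FPKM, Hbb-bs was the highest member at 47.3 in treated ECM, 0.190 in ECM and 30.4 in control (group means). Hba-a1 followed at 18.9 in treated ECM, 0.136 in ECM and 10.7 in control. Hbb-bt had 4.84, 0 and 1.98 FPKM, Hba-a2 1.01, 0.0338 and 0.676, and Alas2 0.483, 0.0758 and 0.415, in the same order of groups. Division between near-identical copies bears on these FPKM values, since a shared read may be counted for either copy or for neither. No source used here gives the gene lengths behind them.

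Levels varied widely within the treated and control groups. The summed hemoglobin level differed 6.22-fold between the highest and lowest treated library and 4.20-fold between the highest and lowest control. Hba-a1, Hbb-bs and Hbb-bt ranked the libraries in the same order within treated ECM, with library 1 highest and 4 lowest, and within control, with library 2 highest and 4 lowest. Hba-a2 and Alas2 did not follow that order, at 4 to 15 and 6 to 31 reads per library outside ECM. Control 4, the lowest control, also had the highest mitochondrial share of the controls (10.7%). Its part in the spread was not tested.

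The share of each copy was described without a test. These are shares of reads as counted, and a read from a shared stretch may be counted for either copy or for neither. The intervals do not cover that uncertainty. Hbb-bt made up 9.78%, 11.7%, 9.15% and 8.86% of the beta-pair reads in treated ECM 1 to 4 and 8.96%, 7.43%, 4.51% and 3.0% in control 1 to 4. Pooled, it was 10.2% of 2154 reads in treated ECM (exact 95% interval 8.97 to 11.6), 0 of 7 reads in ECM, which allows up to 41.0%, and 6.96% of 1293 reads in control (5.63 to 8.49). The library ranges touch, since the lowest treated share is below the highest control share. Hba-a2 made up 3.97% of 906 alpha-pair reads in treated ECM, 1 of 7 in ECM and 4.62% of 498 in control. Alpha reads were 29.6% of all hemoglobin reads in treated ECM (28.0 to 31.3), 7 of 14 in ECM (23.0% to 77.0%) and 27.8% in control (25.7 to 29.9). At 14 reads, the interval for ECM is wide and holds the shares of the other groups. A shift in the balance of alpha and beta in ECM was not tested.

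**Figure D3:**
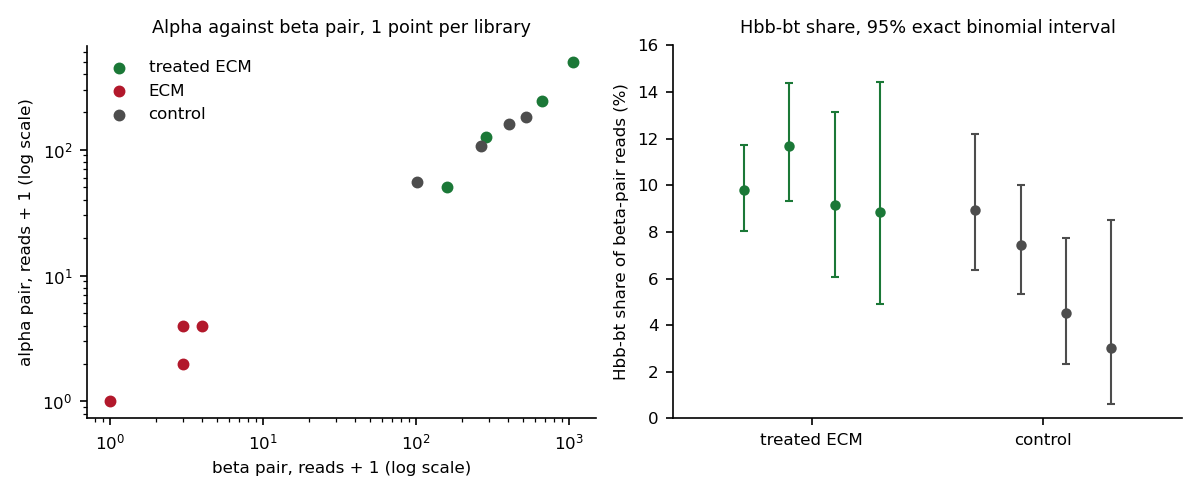
Left, reads of the alpha pair against reads of the beta pair, each plus 1, on log axes, with 1 point per library; the 8 treated and control points lie together at the top right and the 4 ECM points at the bottom left. Right, share of Hbb-bt in the beta-pair reads of each treated and control library with exact 95% intervals, from 8.86% to 11.7% in treated ECM and from 3.0% to 8.96% in control.

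The enzymes that make heme, Alas2 among them, were followed as a list. Of 9 heme synthesis enzymes, all tested, 0 were called by edgeR in any of the 3 comparisons. At an unadjusted edgeR p below 0.05, 1 of them passed in ECM against control and 3 in treated ECM against ECM. In treated ECM against control 0 did. Over all 14599 genes tested, 3310, 3781 and 1671 passed in these 3 comparisons, in that order. Counts at that threshold in the lists below are read beside these. DESeq2 called 1 (Alas2), 2 (Alas2 and Fech) and 0 of the 9 enzymes in the same order. The list's median log2 fold change was -0.00 in ECM against control, 0.05 in treated ECM against ECM and 0.10 in treated ECM against control, beside -0.02, 0.01 and 0.00 over all genes tested. Alas1, the form used outside the erythroid lineage, averaged 57.0 ± 2.44 CPM in treated ECM, 55.7 ± 7.47 in ECM and 48.9 ± 5.05 in control (SD, n = 4 each). Fech, which puts iron into the heme ring, averaged 63.7 ± 1.37 CPM in treated ECM, 82.7 ± 10.3 in ECM and 75.5 ± 1.67 in control, and its difference between treated ECM and ECM (-0.38 on the log2 scale) had an edgeR adjusted p of 0.0713. Without Alas2, the other 8 enzymes summed to 268 to 285 CPM in treated ECM, 258 to 306 in ECM and 262 to 296 in control.

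The other members of the globin family were mostly low or not called. Of 9 listed, 3 were tested, and edgeR and DESeq2 called 0 of them in any comparison, also at an unadjusted p below 0.05: neuroglobin (Ngb), cytoglobin (Cygb) and myoglobin (Mb). Ngb averaged 9.85 ± 5.18 CPM in treated ECM, 10.4 ± 6.06 in ECM and 7.63 ± 3.67 in control, and Cygb 63.6 ± 9.86, 64.4 ± 9.84 and 52.4 ± 17.3 in the same order. Mb, which stores oxygen in muscle, had 49, 29 and 47 reads in the treated ECM, ECM and control groups. Its mean was lowest in ECM, with a log2 fold change of -0.57 in ECM against control (SE 0.56, edgeR adjusted p = 0.618) and 0.54 in treated ECM against ECM (SE 0.55, edgeR adjusted p = 0.562). The embryonic genes Hbb-bh1 and Hbb-bh2 had 0 reads in all 12 libraries. Embryonic Hbb-y had 4, 6 and 4 reads in the treated ECM, ECM and control groups, and embryonic Hba-x 0, 1 and 0. In the same order, Hbq1a had 19, 20 and 20 reads and Hbq1b 5, 3 and 2.

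Red cell genes beyond the members were followed as a list. Of 23 listed red cell and reticulocyte genes, 22 were in the table and 12 were tested, several of which the brain itself expresses. Carbonic anhydrase Car2, abundant in oligodendrocytes as well as red cells, averaged 208 ± 34.4 CPM in treated ECM, 105 ± 14.6 in ECM and 242 ± 39.6 in control. It was the 1 gene of this list called, lower in ECM than in control (-1.21, edgeR adjusted p = 0.000299) and higher in treated ECM than in ECM (0.99, edgeR adjusted p = 0.00416). Genes known mainly from the red cell lineage gave few or no reads. Rhag and Tspo2 had 0 in every library. The anion exchanger Slc4a1 had 15, 7 and 17 reads in the treated ECM, ECM and control groups, and Rhd 14, 4 and 12. Others did not follow that order: Epb42 had 3, 7 and 5 reads, Car1 7, 6 and 4, and Trim10 1, 4 and 0. None of these genes passed the low-count filter, so their differences were not tested. Of the tested genes, Ermap had 53, 24 and 57 reads and Gypc 126, 104 and 81, and neither was called. Among 10 erythroid regulators, Gata1 had 0 reads everywhere and Klf1, which switches on adult beta-globin, 15, 5 and 14 reads. Nfe2 had 10, 24 and 2 reads and Gfi1b 0, 6 and 1, both highest in ECM. The transferrin receptor Tfrc, used for iron uptake by many cells, fell in treated ECM, at 91.7 ± 17.6 CPM, against 177 ± 28.1 in ECM (-0.95, edgeR adjusted p = 0.00438) and 159 ± 10.3 in control (-0.79, edgeR adjusted p = 0.0176). The call against control was lost without any 1 of treated 2, 3 and 4 and of control 1 and 3 (adjusted p 0.0652 to 0.0897).

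Among genes that clear free hemoglobin and heme, Hp and Hmox1 were highest in ECM. Of 8 listed, 7 were tested and 2 were called in each comparison. Haptoglobin (Hp), which binds free hemoglobin, averaged 2.94 ± 1.09 CPM in treated ECM, 9.11 ± 2.0 in ECM and 0.300 ± 0.251 in control. Its log2 fold change was 4.84 in ECM against control (edgeR adjusted p = 5.24e-05), -1.64 in treated ECM against ECM (adjusted p = 0.0378) and 3.21 in treated ECM against control (adjusted p = 0.00493). The call between treated ECM and ECM was lost without any 1 of the 4 treated or the 4 ECM libraries (edgeR adjusted p 0.0521 to 0.105). Heme oxygenase Hmox1, which breaks heme down, averaged 8.58 ± 2.40 CPM in treated ECM, 65.2 ± 18.9 in ECM and 3.95 ± 0.687 in control. It rose in ECM against control (4.04, edgeR adjusted p = 9.21e-07) and fell in treated ECM against ECM (-2.93, adjusted p = 0.0002). Its difference between treated ECM and control (1.11, adjusted p = 0.0456) was lost without any 1 of treated 2, 3 and 4, ECM 4 and the 4 controls (edgeR adjusted p 0.0599 to 0.175). Neither gene is specific to red cells, and Hp is also made by neutrophils. Of 11 heme and iron carriers, Fth1, the ferritin heavy chain, was the 1 called, higher in ECM than in control (0.74, edgeR adjusted p = 0.0354), a call lost without any 1 of treated 1, 2 and 3, ECM 2 and 3, and control 1, 2 and 3 (edgeR adjusted p 0.0506 to 0.113).

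Markers of other blood cells were followed beside the hemoglobin genes. Of 10 platelet genes, 4 were tested, and edgeR and DESeq2 called 0 of them in any comparison, also at an unadjusted p below 0.05. Their summed level ran from 4.23 to 5.42 CPM in treated ECM, 5.08 to 7.37 in ECM and 3.82 to 6.34 in control. The 4 tested genes did not share 1 order of groups. Platelet factor Pf4 had 48, 40 and 29 reads in the treated ECM, ECM and control groups. In the same order, Itga2b had 119, 140 and 116 reads, Gp1ba 61, 75 and 69, and Gp5 47, 66 and 69. Of 8 neutrophil genes, 3 were tested, and all 3 were called higher in ECM than in control, 1 (Mmp8) was called lower in treated ECM than in ECM, and 2 (S100a8 and S100a9) were called higher in treated ECM than in control. The summed neutrophil level ran from 2.43 to 4.63 CPM in treated ECM, 3.38 to 9.75 in ECM and 0.250 to 0.480 in control. S100a8, a neutrophil protein, averaged 1.02 ± 0.195, 1.71 ± 0.543 and 0.102 ± 0.0961 CPM in treated ECM, ECM and control. S100a9, its partner, averaged 1.5 ± 0.493, 1.17 ± 0.845 and 0.0788 ± 0.0626 CPM in the same order, so its mean was not highest in ECM. The part of these cells in the hemoglobin result was not tested.

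**Figure D4:**
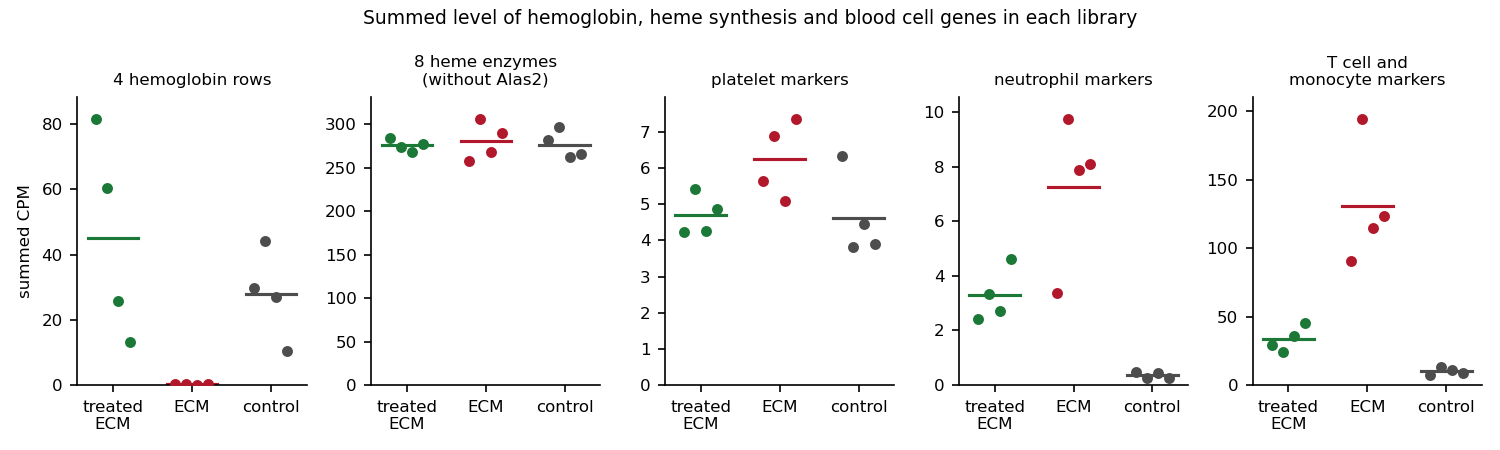
Summed CPM, from 0, of the 4 hemoglobin rows, the other 8 heme synthesis enzymes, and markers of platelets, neutrophils, and T cells and monocytes in each library, with group means as bars, and treated ECM, ECM and control from left to right. Hemoglobin is near 0 in ECM, the heme enzymes lie between 258 and 306 CPM in all groups, and the sums of neutrophil and of T cell and monocyte markers are lowest in control.

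Genes with the pattern nearest that of hemoglobin were looked up across the libraries. Likeness was measured as the mean absolute difference, over the 12 libraries, between centred log2(CPM + 0.1) values of a gene and of the 4 hemoglobin rows summed. Smaller values mean a closer pattern. The hemoglobin genes are part of that sum, so their own closeness is fixed by the measure and is not given. Alas2, which is not in the sum, had 2.03, and the median over 13607 genes compared was 2.97. The nearest genes outside the members were Gkn3 (1.62), Fzd2 (1.87), Ttr (1.92), Gpr17 (1.92), Hes5 (1.93), Adnp (1.93), Ankk1 (1.95) and Lct (2.01). Ttr and Adnp were called by edgeR in no comparison. Ttr ran from 2.22 to 352 CPM in ECM and 46.3 to 573 in control, and Adnp from 0 to 5.53 and 0.478 to 4.69. With a pseudocount of 0.5 they took places 42 and 20. Gkn3, an arterial endothelial gene in mouse brain, averaged 1.17 ± 0.531 CPM in treated ECM, 0.136 ± 0.133 in ECM and 4.21 ± 1.2 in control. Unlike the hemoglobin genes it was lower in treated ECM than in control in mean, though not called (-1.83, edgeR adjusted p = 0.0723). Gpr17, a marker of oligodendrocyte precursors, averaged 56.8 ± 9.5 CPM in treated ECM, 11.5 ± 6.13 in ECM and 46.8 ± 7.83 in control. With a pseudocount of 0.5 in place of 0.1, 4 of these 8 genes remained among the nearest 8 (Gkn3, Fzd2, Gpr17 and Hes5). By size of the fitted fold change, Hbb-bt, Hbb-bs and Hba-a1 were ranks 1, 2 and 3 of 14599 genes, both among the falls in ECM and among the rises after treatment, and Alas2 ranked 17 and 15. The first place of Hbb-bt depends on the prior count.

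The authors' deposited tables list all 5 members in ECM against control, among 1459 genes, and in treated ECM against ECM, among 1361, and 0 of them in treated ECM against control, among 637. Every gene listed there had an unadjusted p below 0.05 and an absolute log2 fold change of at least 1.00. A listing is therefore not a call at an adjusted p below 0.05, and Alas2 is listed in ECM against control with the authors' adjusted p at 0.0742. The authors' log2 fold changes for Hba-a1 are -6.18 and 6.97, for Hbb-bs -7.27 and 7.88, for Hbb-bt -6.72 and 7.98, and for Hba-a2 -4.12 and 4.66, in ECM against control and treated ECM against ECM. No source used here names the tool behind those values.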

How the data were processed

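Per the labels' protocols, Trizol RNA from brains stored in RNAlater went into libraries of the NEBNext Ultra type. Per the submitters' processing notes, Trimmomatic, FastQC, STAR and HTSeq were used with build mm10, to give the deposited read counts per gene. No source used here gives versions, the annotation, strand settings or the treatment of reads that match several genes. The authors' deposited tables of comparisons also hold a log2 fold change, a p-value, a normalized signal, read counts and an FPKM per gene, per the file headers. The FPKM were used for levels only, the deposited log2 fold changes and p-values were only quoted, and the signal was used for nothing.

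The values of 2212 rows (gene names of 8 characters or longer) sat in the wrong columns and were moved back. There, treated library 4 differed from the deposited comparison tables (32 of 33 and 77 of 85 genes), so these rows were fitted with 11 libraries. In shorter names, all 5 members included, 0 values differed in 604, 1274 and 1381 genes. Another 26 rows whose names had become dates were left out.

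After TMM scaling and a filterByExpr filter, counts were tested with edgeR's quasi-likelihood test, 1 mean per group (edgeR 4.0.16, R 4.3.3), with Benjamini-Hochberg adjustment over 14599 genes. The pairs were tested in a table where the copies were summed. On simulated counts for ECM against control (14251 genes), the step called 49 of 50 genes changed by -2 on the log2 scale and 10 of 14051 unchanged ones. Every simulated gene had the same fixed dispersion, while the SD of Hbb-bs, for instance, was 51.8% of its mean in control. The simulation therefore does not measure power or error for genes as variable as the members. DESeq2 1.42.0 was an alternative. Figures and summaries used Python 3.11.15, pandas 2.3.3, scipy 1.17.1 and matplotlib 3.10.9.

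The members and lists were chosen with earlier results of these data known. Besides the members, genes named are up to 4 called genes per list with the largest fold change and at least 0.5 CPM in 1 group, Alas1 and Fech, and the 8 genes with the most similar pattern. Low genes of the lists named beside them were chosen after their values were seen. Predicted genes were left out. Reads of genes on opposite strands may be mixed, since no label says that the kit keeps the strand.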

Additional observations from a re-analysis of the deposited data

Results flagged for a closer look

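In groups of 4 libraries, a library was marked where its gap to the nearest other library took up more than 0.83 of the group's range. Chance marks about 1 in 20 groups of normally distributed values, a rate that need not hold for counts near 0. All groups of the members were examined except Hbb-bt in ECM, where every value is 0. The pairs and the sum of the 4 hemoglobin rows were examined too, without a mark. Alas2 stood at 1.5 CPM (24 reads) in control 2, against 0.586 to 0.657 CPM in the other controls. Hba-a2 stood at 0.0752 CPM in ECM 1, a single read where the other ECM libraries had none, which the rule always marks. In control 3, Hba-a2 stood at 0.584 CPM (8 reads), against 0.273 to 0.320 CPM in the other controls. All 3 rest on low counts, and the cause was not tested.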

How the results depend on the processing

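Of 1142 values recomputed under 23 alternatives, 1075 kept their direction and their side of the threshold, and 0 changed sign. All 132 values of the alpha and beta pairs did so, as did all 66 counts of members called (within 1.5 times) and 246 of 249 member fold changes. The other 3 were the Alas2 calls described above. Members called lower in ECM were 2 of 2 tested with only the 2 groups in the fit, and 4 without a filter or with DESeq2. Leaving out 1 library at a time, the alpha pair ranged from -6.35 to -5.59, 6.16 to 7.12 and 0.22 to 1.10 in ECM against control, in treated ECM against ECM and in treated ECM against control, and the beta pair from -7.70 to -6.95, 7.55 to 8.36 and 0.25 to 1.01. Of 613 values of the other named genes, 563 were kept.

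Counts over all genes moved more. In treated ECM against ECM 1219 genes were called, against 539 with the replicate number as a block, 2143 with DESeq2, 2273 without ECM 2, ECM 3 and control 4, and 550 to 2101 without 1 library (600, 550, 590 and 638 without treated 1 to 4, 1970 without ECM 4 and 2101 without control 4). In ECM against control 1499 were called, against 867 with only the 2 groups in the fit and 2772 without those 3 libraries. In treated ECM against control it was 298, against 455 with DESeq2 and 469 without those 3 libraries. The cause was not tested. Same-numbered libraries correlated from -0.66 to 0.31 in their deviations from group means. With 4 libraries per group, these values do not settle whether the numbers pair the samples. In ECM against control, the block lowered the SE of the beta pair from 0.82 to 0.47 and raised that of Alas2 from 0.78 to 0.81. With the block the pairs stood at -5.92 and -7.24 in ECM against control and 6.43 and 7.79 in treated ECM against ECM, all called. In ECM the members rest on 0 to 6 reads per library, which limits folds and shares there.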

Other observations

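The summed transcripts of T cells and monocytes were highest in ECM. Of 8 listed genes, all tested, 7 rose in ECM against control, 6 fell in treated ECM against ECM and 6 were called higher in treated ECM than in control, all by edgeR. Their summed level was 24.4 to 45.5 CPM in treated ECM, 90.7 to 195 in ECM and 7.52 to 13.5 in control, and the groups did not overlap. Cd4 was the exception, at 8.32 ± 2.25 CPM in treated ECM, 6.23 ± 3.10 in ECM and 9.44 ± 2.19 in control (SD, n = 4 each), and was called in no comparison by edgeR or DESeq2. Treated brains had hemoglobin levels overlapping those of controls, while this list was still above control in every treated library. Of 12 endothelial genes, 6 rose and 2 fell in ECM against control, with a summed level of 414 to 529 CPM in treated ECM, 604 to 691 in ECM and 388 to 411 in control. Of 6 B cell genes, 5 were in the table and 1 was tested, and edgeR and DESeq2 called 0, also at an unadjusted p below 0.05. Of 10 neuron and glia markers, 1 rose (Gfap) and 1 fell (P2ry12) in ECM against control.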
